A study of Mus musculus with 20 samples.

Results

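The comparison set progenitor cells that lack an enhancer 77 kb upstream of Gata2 and carry a retrovirus coding the GATA2 variant T354M against normal progenitor cells, and asked what stayed below and what went above the level of normal cells. Libraries were chosen by their sample labels, 4 of T354M and 4 of wild type, which are 8 of the 20 RNA-seq libraries of the series. The other 12, 4 per group, were enhancer-null cells with wild-type GATA2, with the variant R307W or with an empty vector. They entered the same statistical fit.

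The T354M cells were enhancer-null, Lin- (without markers of mature blood lineages) hematopoietic progenitors infected with an MSCV retroviral vector that codes GATA2 T354M and cultured for 3 days. The records of these libraries give no tissue, age, strain or medium. The wild-type cells were Lin- hematopoietic progenitors of E14.5 fetal liver of C57BL/6J mice, infected with a control retroviral vector and cultured for 3 days in IMDM with 20% FBS, penicillin-streptomycin and conditioned media (CM) holding IL3 and SCF, at 4% each. The enhancer-null cells with wild-type GATA2 or with an empty vector are described in the same way as the wild-type cells, apart from the deletion and the vector. A difference in handling that the shorter records leave unstated cannot be told apart from the difference between T354M and wild type. No label ties a library to an animal or a separate culture, so p-values measure the spread between these libraries.

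Blood stem cells and early progenitors rely on the zinc finger protein GATA2, and changes of its DNA-binding zinc fingers, T354M among them, are inherited in human bone marrow failure and leukaemia. The deleted enhancer drives the gene in myeloid and erythroid progenitors. As red cell precursors mature, GATA1 takes the place of GATA2 at shared sites, and mast cells, basophils and eosinophils depend on GATA factors as well.

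Promoters of 6 genes are printed because these genes show the main patterns described below. Prg3 and Il5ra (eosinophil genes) were higher in T354M cells than in wild-type cells, as was Ctsg (a granule protease), and Rhag, Epb42 (red cell membrane genes) and Cma1 (a mast cell protease) were far lower. Each line gives the 250 bases before the RefSeq transcription start, 5′ to 3′ on the strand of the gene, from build GRCm38.p6. Capitals mark the letters GATAA, the core that GATA factors bind, which read TTATC where the match is on the other strand. Prg3 lies at chr2:84987965-84988214 on the plus strand, Il5ra at chr6:106749038-106749287 on the minus strand and Rhag at chr17:40810899-40811148 on the plus strand. Epb42 lies at chr2:121036878-121037127, Cma1 at chr14:55944676-55944925 and Ctsg at chr14:56102575-56102824, all on the minus strand.
Prg3: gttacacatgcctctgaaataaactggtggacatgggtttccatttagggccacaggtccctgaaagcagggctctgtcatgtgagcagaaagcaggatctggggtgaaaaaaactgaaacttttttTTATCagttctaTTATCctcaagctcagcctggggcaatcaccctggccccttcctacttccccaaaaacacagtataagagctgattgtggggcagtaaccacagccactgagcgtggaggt
Il5ra: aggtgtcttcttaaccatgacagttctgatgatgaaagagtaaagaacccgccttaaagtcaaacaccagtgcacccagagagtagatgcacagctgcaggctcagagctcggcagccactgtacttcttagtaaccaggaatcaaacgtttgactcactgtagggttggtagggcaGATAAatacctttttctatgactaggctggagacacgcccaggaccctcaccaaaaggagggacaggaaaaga
Rhag: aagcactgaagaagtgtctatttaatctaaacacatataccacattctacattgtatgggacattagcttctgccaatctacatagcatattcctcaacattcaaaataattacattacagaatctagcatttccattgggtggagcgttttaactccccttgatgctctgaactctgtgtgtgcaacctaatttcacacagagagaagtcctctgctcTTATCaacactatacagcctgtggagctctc
Epb42: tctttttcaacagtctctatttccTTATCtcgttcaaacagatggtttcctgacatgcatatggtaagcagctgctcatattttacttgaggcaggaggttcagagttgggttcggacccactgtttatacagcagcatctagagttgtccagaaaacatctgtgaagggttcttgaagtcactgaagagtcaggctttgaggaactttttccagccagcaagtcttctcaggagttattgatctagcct
Cma1: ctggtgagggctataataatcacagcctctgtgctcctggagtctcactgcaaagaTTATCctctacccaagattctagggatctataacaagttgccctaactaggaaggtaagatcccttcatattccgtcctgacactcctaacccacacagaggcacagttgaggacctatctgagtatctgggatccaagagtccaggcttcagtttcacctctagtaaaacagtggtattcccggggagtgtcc
Ctsg: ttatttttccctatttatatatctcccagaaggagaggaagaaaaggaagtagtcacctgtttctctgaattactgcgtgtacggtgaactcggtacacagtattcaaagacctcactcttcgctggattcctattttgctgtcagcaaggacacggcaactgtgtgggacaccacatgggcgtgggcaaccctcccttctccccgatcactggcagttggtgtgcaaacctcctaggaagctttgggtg

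Prg3 holds the letters at 2 places, which start 123 and 111 bases before the transcription start, both on the other strand. Il5ra holds them once on its own strand, 73 bases before the start. Rhag, Epb42 and Cma1 each hold them once on the other strand, 31, 226 and 194 bases before the start, and Ctsg has no match in this window. Of 32851 promoters of this length, 22.58% hold GATAA on either strand. Of the 12 promoters of azurophil granule genes 0 do, against 6 of 11 of mast cell and basophil proteases, 6 of 16 of red cell membrane genes, 3 of 10 of eosinophil genes and 8 of 17 of megakaryocyte genes. Other lists ran from 0 of 16 promoters of sterol and fatty acid synthesis genes to 7 of 7 of globin genes, with 8 of 19 of hepatocyte genes. The shorter letters GATA were in 53.62% of all promoters and in 4 of the 12 of azurophil genes, and Ctsg holds them once. A link between these letters and the differences in level was not tested. Of 110 genes looked up, 87 were in the RefSeq table.

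Library totals were 25395555 to 31649662 expected counts in T354M cells and 22330475 to 26843817 in wild-type cells. The mitochondrial ribosomal RNA mt-Rnr2 took 17.9 to 19.7% of the counts in T354M libraries and 17.9 to 24.6% in wild-type libraries. The markers Ptprc, Kit, Cd34, Myb, Spi1 and Runx1 were present in all 8 libraries. The T cell gene Cd3e had 0 to 2 counts in T354M and 0 to 2 in wild-type libraries. Markers of mature myeloid and red cells were present in both groups after the culture, among them the macrophage gene Adgre1 and the globin gene Hbb-bt. On the first principal component of all 20 libraries, which held 35.4% of the variance, the T354M libraries lay at -17.3 to -37.3. The empty-vector enhancer-null libraries lay at -42.7 to -47.4, the GATA2 libraries at -19.3 to 31.7 and the wild-type libraries at 70.6 to 90.2. On the second component, with 21.5% of the variance, T354M libraries lay at -11.7 to 54.1. Empty-vector enhancer-null libraries lay there at -47.2 to -40.8 and wild-type libraries at -37.0 to -9.98. The Y-linked gene Ddx3y had 8.1, 51.2, 54.7 and 0 CPM (counts scaled to library size) in T354M replicates 1 to 4 and 45.1, 141, 0 and 45.8 CPM in wild-type replicates 1 to 4, which shows that both groups mix sexes across libraries. It did not pass the test (log2 difference -1.03 ± 1.58, SE, adjusted p = 0.652), nor did Xist (0.28, adjusted p = 0.844, edgeR for both).

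Gata2 itself, counted per library, did not pass the test between T354M and wild-type cells. Means below carry the SD over 4 libraries and log2 differences their SE. Gata2 (chr6:88193891-88207032 on the plus strand of build GRCm38, GENCODE M21; gene positions below are from the same build) had 63.5, 33.6, 37.2 and 73.8 CPM in T354M replicates 1 to 4, against 53, 31.5, 41.8 and 50.9 CPM in wild-type replicates 1 to 4. The groups overlapped, and T354M replicates 4 and 1 were the highest of the 8 libraries. The log2 difference was 0.23 ± 0.32 (SE, n = 4 each, adjusted p = 0.617 in the edgeR quasi-likelihood test with Benjamini-Hochberg adjustment, which gives all adjusted p-values here unless stated). Empty-vector enhancer-null cells averaged 5.79 ± 1.3 CPM and enhancer-null cells with wild-type GATA2 80.7 ± 37.3 CPM (SD, n = 4 each). T354M cells were above the empty-vector cells by 3.16 on the log2 scale (adjusted p = 6.65e-06) and did not pass the test against wild-type GATA2 (-0.63, adjusted p = 0.28), which with the replicate number as a block gave -0.62 (adjusted p = 0.028).

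The deposited TPM, which divides by transcript length, gave another picture. It was 44.7, 20.8, 23.5 and 35.6 in T354M libraries, against 16.0, 10.1, 13.7 and 17.1 in wild-type libraries, with no overlap. RSEM's effective length of Gata2 was 1450 to 1853 bases in T354M libraries and 2633 to 2841 bases in wild-type libraries. The limma test on log2(TPM + 1) passed, with a difference of 1.04 (adjusted p = 0.00536). Reads of the vector and of the chromosomal gene cannot be told apart in these tables, so the level of the variant protein was not measured.

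**Figure D1:**
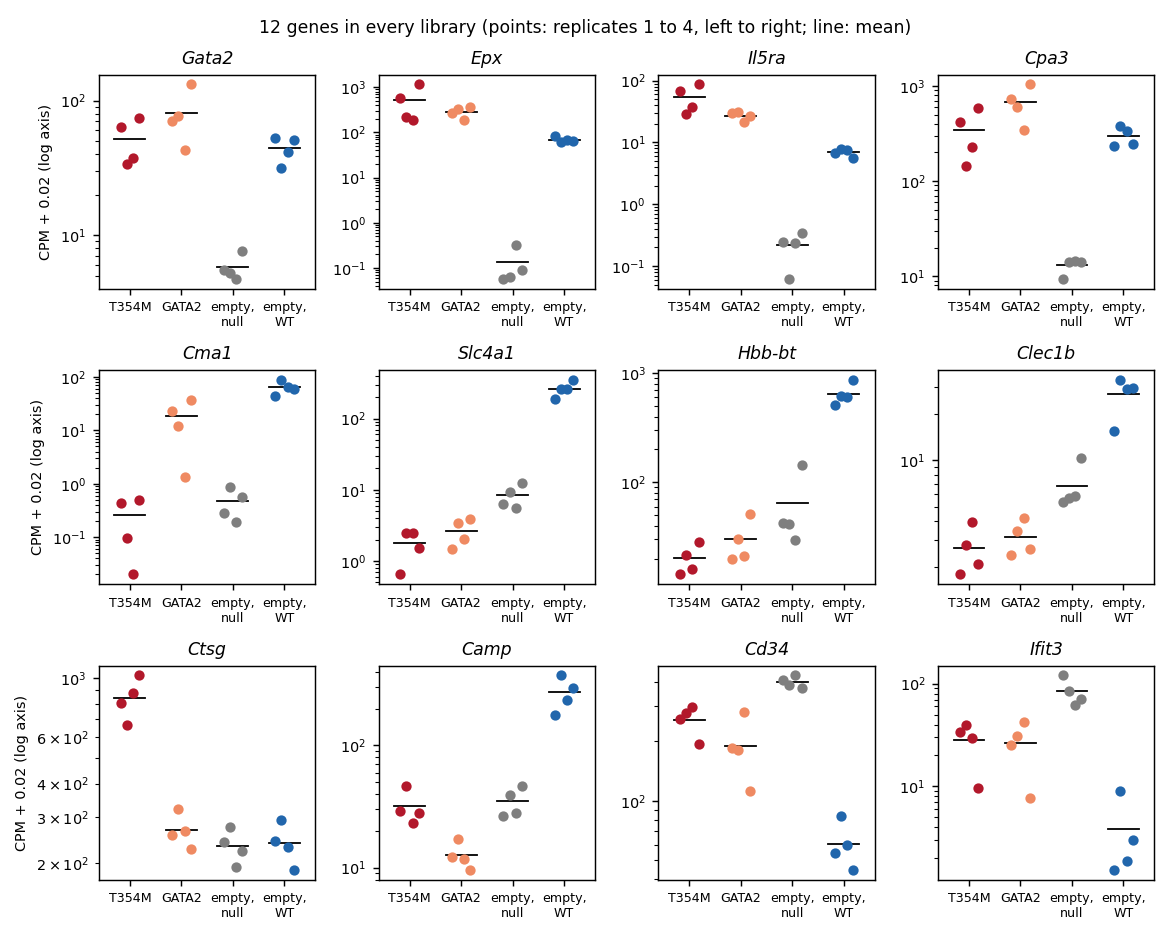
Level of 12 genes in single libraries (CPM + 0.02, log axis), by group, with T354M left and wild type right; points are libraries and lines are group means. Gata2 overlaps between T354M and wild type, Epx, Il5ra, Ctsg, Cd34 and Ifit3 are higher in every T354M library than in every wild-type library, and Slc4a1, Hbb-bt, Cma1, Clec1b and Camp are lower in every one.

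Across 15835 genes tested, 5860 (37%) differed between T354M and wild-type cells at an adjusted p under 0.05, of which 2941 were higher and 2919 lower in T354M cells. These are 18.6% and 18.4% of the genes tested, and list counts below are to be read against them. Among differences of at least 2-fold, more genes were lower than higher. Of the genes tested, 1620 (10.2%) were lower by at least 2-fold and 785 (4.96%) higher by at least 2-fold. The median log2 difference of all genes tested was 0.02. Genes both called and without overlap of the 4 and 4 libraries were 4360 (27.5%). The split between directions moved with the settings. With limma on log2(TPM + 1), which changes the unit, the scaling and the test together, 3482 genes were higher and 2020 lower. On counts with DESeq2 size factors 2778 were higher and 3019 lower.

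**Figure D2:**
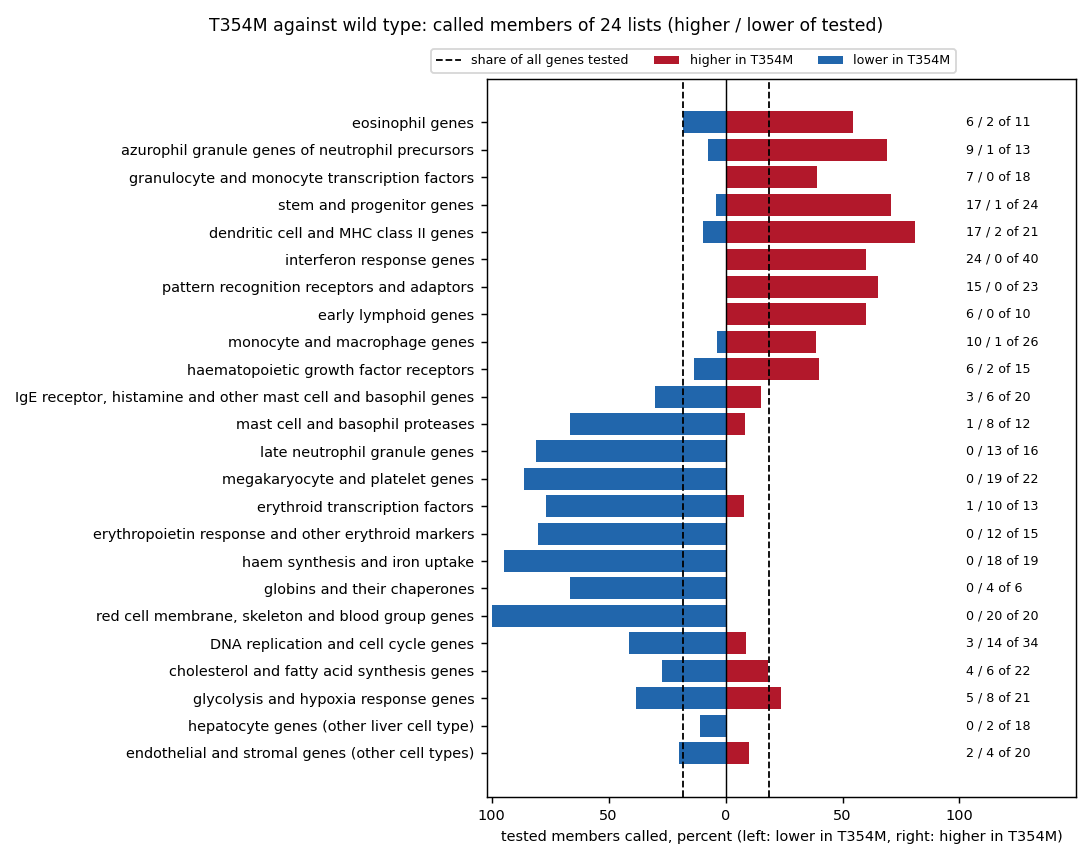
Percent of tested members of 24 gene lists called higher (right) or lower (left) in T354M than in wild-type cells at an adjusted p under 0.05; dashed lines show the 18.6% and 18.4% of all genes. Red cell membrane genes (20 of 20 lower), interferon response genes (24 of 40 higher) and dendritic cell genes (17 of 21 higher) lie far past the lines.

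The lowest genes of all include Pdia2, which codes a disulfide isomerase of the endoplasmic reticulum, with 0, 0.232, 0.0721 and 0 CPM in T354M libraries and 21.5, 27.6, 45.2 and 35.1 CPM in wild-type libraries. Its log2 difference of -8.73 ± 0.70 (adjusted p = 1.71e-08) was the lowest among named genes. Slc30a10 (a manganese exporter; -7.56), Btnl10 (-7.46), Igfbp5 (an insulin-like growth factor binding protein; -7.36), Acsl6 (a fatty acyl-CoA ligase of red cells and brain; -7.36), Sowaha (-7.33) and Slc25a21 (a mitochondrial carrier; -7.30) followed. At the other end, Cd96 (a receptor of T and NK cells and some progenitors) had 9.36, 8.14, 10.7 and 10.2 CPM in T354M and 0.565, 1.23, 1.22 and 0.992 CPM in wild-type libraries. Each T354M library was above each wild-type library, with a log2 difference of 3.26 ± 0.27 (adjusted p = 2.78e-08). Il17rb (an interleukin 25 receptor subunit; 3.13), Klhl3 (a ubiquitin ligase adaptor; 2.73), S1pr3 (a sphingosine phosphate receptor; 2.66) and Ifit1bl1 (an interferon-induced gene; 3.21) were also higher.

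Of 11 tested eosinophil genes, 6 were higher in T354M than in wild-type cells, with a median log2 difference of 1.09 over the list. The ribonucleases Ear1 and Ear2 were lower, a share close to the 18.4% of all genes that were lower. Epx (chr11:87864000-87875536), the eosinophil peroxidase, had 567, 223, 186 and 1167 CPM in T354M libraries and 81.7, 61.7, 68.8 and 65.6 CPM in wild-type libraries. All T354M libraries were above all wild-type libraries, and replicates 4 and 1 were far above replicates 2 and 3. The log2 difference was 2.95 ± 0.46 (adjusted p = 4.42e-05). Empty-vector enhancer-null cells averaged 0.114 ± 0.129 CPM.

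Il5ra (chr6:106710357-106749037), the interleukin 5 receptor whose signal eosinophil precursors need, had 67.6, 28.8, 37.9 and 87.5 CPM in T354M and 6.78, 7.9, 7.6 and 5.55 CPM in wild-type libraries, without overlap. Its log2 difference was 3.00 ± 0.30 (adjusted p = 3.14e-07). The major basic protein genes Prg2 (1.86) and Prg3 (2.19), the lectin Siglecf (2.12) and the receptor Cd244a (1.09) rose as well. Prg2 had 2110.2, 662, 669 and 3863 CPM in T354M and 406, 600.1, 636 and 376 CPM in wild-type libraries, and its call was lost without replicate 4 of every group (log2 difference 1.07, adjusted p = 0.0758). Ear1 and Ear2, eosinophil-associated ribonucleases, were lower, with log2 differences of -1.66 and -1.51. Ear1 had 23.5, 5.67, 5.19 and 53.6 CPM in T354M and 50.7, 86.9, 85.5 and 56 CPM in wild-type libraries, and its call was lost without T354M replicate 1, 2 or 3 or wild-type replicate 2 or 3 (-1.69 to -1.31, adjusted p 0.0523 to 0.0793). That of Ear2 was lost without T354M replicate 2 or 3 or wild-type replicate 3 (-1.35 to -1.18, adjusted p 0.0512 to 0.0659). The list had 0 lower members without T354M replicate 2 or 3 or wild-type replicate 3, 1 without T354M replicate 1 or wild-type replicate 2, and 4 without T354M replicate 4. Near-identical Ear genes share reads, so the split among them is uncertain. Ear6 averaged 40 ± 34.8 CPM and 70.2 ± 21.7 CPM, and Ccr3, a chemokine receptor of mature eosinophils, 0.812 ± 0.71 and 2.84 ± 1.01 CPM in T354M and wild-type cells (SD, n = 4 each). Neither passed the test.

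Against the empty-vector enhancer-null cells, from which 17.4% of all genes differed (9.26% higher and 8.11% lower), 9 of these 11 genes were higher and 0 lower. From enhancer-null cells with wild-type GATA2, 10% of all genes differed (3.86% higher and 6.14% lower). Against these cells 2 of the 11 eosinophil genes were higher in T354M cells, Siglecf and Il5ra, and 3 lower, Ear1, Ear2 and Ccr3. The median log2 difference of the list was -0.50. Siglecf was higher in T354M cells by 1.22 on the log2 scale (adjusted p = 3.42e-04). Il5ra was higher by 1.02 (adjusted p = 0.0226), a call that was lost without T354M replicate 1 or 4 or GATA2 replicate 1, 3 or 4 (0.69 to 1.05). Epx did not pass (0.90, adjusted p = 0.232). All these comparisons share the T354M libraries.

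Most mast cell proteases were far below the normal level in T354M cells. Of 12 tested proteases of mast cells and basophils, 8 were lower than in wild-type cells and 1 higher, Ctsg, which neutrophil precursors also make, with a median log2 difference of -5.35. Cma1 (chr14:55941451-55944675), a mast cell chymase, had 0.419, 0.0772, 0 and 0.483 CPM in T354M libraries and 45, 88.7, 64.8 and 59.3 CPM in wild-type libraries. The groups did not overlap, and the log2 difference was -7.96 ± 0.98 (adjusted p = 3.21e-06). Tpsb2, a mast cell tryptase, had 0, 0, 0 and 0.161 CPM in T354M and 12.4, 17.5, 11.9 and 20.6 CPM in wild-type libraries. The sister tryptase Tpsab1 had 0 counts in all 4 T354M libraries together and 112 in the wild-type libraries, which makes it at least 44.0-fold lower against a floor of 3 counts over the group. Mcpt4 (a connective tissue mast cell protease) had 1 count over the T354M group and 345 over the wild-type group. The wild-type to T354M ratio was 407, with a 95% counting interval of 72.5 to 16115 that covers counting error only. The sequences of tryptase and Mcpt genes are alike, so reads may be divided among them.

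Genes that basophils and mast cells share overlapped the normal level in part. Cpa3, a carboxypeptidase of mast cells and basophils, had 413, 145, 228 and 589 CPM in T354M and 236, 381, 338 and 244 CPM in wild-type libraries. The groups overlapped, with T354M replicates 4 and 1 highest, and the log2 difference was 0.20 ± 0.37 (adjusted p = 0.718). The basophil protease Mcpt8 averaged 56.2 ± 26 CPM in T354M and 81 ± 20 CPM in wild-type cells (SD, n = 4 each; adjusted p = 0.295), and Hdc, which makes histamine, 384 ± 157 and 239 ± 19.9 CPM (adjusted p = 0.0686). Among 20 other mast cell and basophil genes, 6 were lower and 3 higher, the prostaglandin synthase Hpgds (0.91), the Fc receptor chain Fcer1g (0.47) and the leukotriene pathway gene Alox5ap (0.56). The call of Hpgds was lost without T354M replicate 1, 2 or 3 or wild-type replicate 1, 3 or 4 (0.68 to 0.98, adjusted p 0.0526 to 0.156). Tph1, which starts serotonin synthesis, had 0, 0.0772, 0.0361 and 0.0644 CPM in T354M and 6.74, 14.7, 6.85 and 8.71 CPM in wild-type libraries, without overlap (log2 difference -7.56 ± 0.99, adjusted p = 6.79e-06). The high-affinity IgE receptor subunit Fcer1a had 3 counts over the T354M group and 142 over the wild-type group, a wild-type to T354M ratio of 55.8 (interval 18.7 to 274). The interleukin 33 receptor Il1rl1 (-1.80) and the cytokine Osm (-1.43) were lower too, as was, in the protease list, the granzyme Gzmb (-3.36).

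Against empty-vector enhancer-null cells, 4 of the 12 proteases were higher in T354M cells (Cpa3, Mcpt8, Ctsg and Prss34) and 0 lower, with a median log2 difference of 1.57. When only the 8 libraries compared were fitted, 6 proteases passed the filter on low counts, 4 of them higher and 0 lower. The rest entered the full fit through other groups. They could hardly be called here, and the median rests partly on them. Cpa3 averaged 344 ± 198 CPM in T354M and 13 ± 2.43 CPM in empty-vector cells (SD, n = 4 each; log2 difference 4.73, adjusted p = 5.21e-07). Of the 20 other genes 11 were higher and 2 lower, Hpgds and Mitf. The lower count was 3 without T354M replicate 2 and 0 without T354M replicate 1, 3 or 4 or any 1 of the empty-vector libraries. Hdc averaged 384 ± 157 CPM in T354M and 14.2 ± 1.45 CPM in empty-vector cells (4.76, adjusted p = 1.44e-08).

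Most mast cell and basophil genes were below their level in cells with wild-type GATA2. Of the proteases, 9 of 12 were lower in T354M than in GATA2 cells and 1 higher, and of the other genes 13 of 20 were lower and 0 higher. When only the 8 libraries compared were fitted, 7 proteases passed the filter, 4 of them lower and 1 higher. Of the other genes 9 of 20 were then lower and 0 higher. Mcpt8 averaged 56.2 ± 26 CPM in T354M and 644 ± 337 CPM in GATA2 cells (SD, n = 4 each; log2 difference -3.52, adjusted p = 2.23e-05). Cma1 averaged 0.245 ± 0.242 and 18.6 ± 15.7 CPM (-6.18, adjusted p = 2.56e-04). Il1rl1 averaged 33.8 ± 28.2 and 377 ± 203 CPM (-3.47, adjusted p = 2.99e-04).

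Azurophil granule genes, which neutrophil precursors express first, were above the normal level. Of 13 tested members 9 were higher and 1 lower, with a median log2 difference of 1.18. Ctsg (chr14:56099881-56102574), cathepsin G, had 805, 667, 877 and 1024 CPM in T354M libraries and 242, 291, 232 and 189 CPM in wild-type libraries. The lowest T354M library lay above the highest wild-type library, and the log2 difference was 1.82 ± 0.17 (adjusted p = 1.36e-07). Empty-vector enhancer-null cells averaged 233 ± 34 CPM and GATA2 cells 268 ± 39.4 CPM. T354M was above both, by 1.86 (adjusted p = 5.35e-07) and 1.66 (adjusted p = 6.76e-06) on the log2 scale.

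Mpo, the myeloperoxidase, had 4139.9, 3646, 4623 and 5718 CPM in T354M and 1694, 1309, 1177 and 1254 CPM in wild-type libraries, without overlap (log2 difference 1.74 ± 0.16, adjusted p = 1.39e-07). The endoplasmic reticulum chaperone Calr (1.70), the granule protein Nkg7 (1.69), the serine protease Prss57 (1.46), the progenitor gene Ms4a3 (1.18) and proteinase 3, Prtn3 (1.06), rose with it. The ficolin Fcnb, which comes later, was lower (-1.54). Elane, the neutrophil elastase, averaged 86 ± 9.54 CPM in T354M and 67.6 ± 13 CPM in wild-type cells and did not pass the test (adjusted p = 0.177), but was above GATA2 cells by 1.66 (adjusted p = 2.98e-05). In the list, 10 of 13 members were higher than in empty-vector cells and 9 of 13 higher than in GATA2 cells, with 0 lower in either.

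Of 18 tested transcription factors of granulocyte and monocyte precursors, 7 were higher than in wild-type cells, 0 were lower and 11 did not pass. The list median from wild type was 0.49 in T354M, 0.54 in GATA2 and 1.03 in empty-vector enhancer-null cells. Compared with empty-vector cells, 3 were higher (Gfi1, Cebpa and Cebpe) and 7 lower, with 2 lower without T354M replicate 4. Cebpa, which starts the granulocyte program, had 84.3, 66.7, 82.6 and 99.5 CPM in T354M and 29.7, 29.4, 26.2 and 25 CPM in wild-type libraries, without overlap (log2 difference 1.60 ± 0.13, adjusted p = 3.36e-08). Gfi1, a repressor that granulocyte precursors need, averaged 62.5 ± 7.82 CPM in T354M, 15.8 ± 1.04 CPM in GATA2 and 11.4 ± 1.42 CPM in empty-vector enhancer-null cells, against 28.1 ± 2.14 CPM in wild-type cells. The T354M level was above wild type by 1.15 (adjusted p = 1.35e-07) and above GATA2 by 1.98 (adjusted p = 6.34e-09). Cebpe, a later granulocyte factor, averaged 51.4 ± 22.4 CPM, 19 ± 5.72 CPM and 5.37 ± 1.55 CPM, against 19.7 ± 6.15 CPM in wild-type cells, in the same order of groups (T354M against wild type 1.38, adjusted p = 0.00206). Spi1 (1.13), Irf4 (2.23) and Irf8 (1.47), factors of myeloid and dendritic cells, were higher too. Irf8 had 36.4, 63.1, 38.9 and 13.6 CPM in T354M and 13.2, 16.5, 12.5 and 12.6 CPM in wild-type libraries, and its call was lost without T354M replicate 2 (1.13, adjusted p = 0.0726).

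Late neutrophil granule genes went the other way. Of 16 tested, 0 were higher and 13 lower, with a median log2 difference of -2.21. The list median from wild type was -2.11 in empty-vector enhancer-null and -2.80 in GATA2 cells, so T354M cells shared this deficit with both. Against empty-vector cells 0 were higher and 1 lower. Against GATA2 cells 3 were higher and 0 lower, with 1 higher without T354M replicate 2. Camp, the cathelicidin, had 29.3, 46.3, 23.3 and 27.8 CPM in T354M and 178, 374, 235 and 297 CPM in wild-type libraries, without overlap (log2 difference -3.10 ± 0.36, adjusted p = 1.90e-06). Lactoferrin, Ltf (-2.89), lipocalin, Lcn2 (-2.51), the surface glycoprotein Cd177 (-3.82) and the calcium-binding alarmin S100a9 (-2.21) were lower as well. Ngp, a neutrophil granule protein, averaged 159 ± 62.5 CPM in T354M, 36.2 ± 8.85 CPM in GATA2 and 741 ± 317 CPM in wild-type cells (SD, n = 4 each). It was below wild type (-2.22) and above GATA2 cells by 2.13 (adjusted p = 0.00148). Mmp8, a neutrophil collagenase, averaged 134 ± 55.5 CPM in T354M and 103 ± 51.7 CPM in wild-type cells and did not pass the test.

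**Figure D3:**
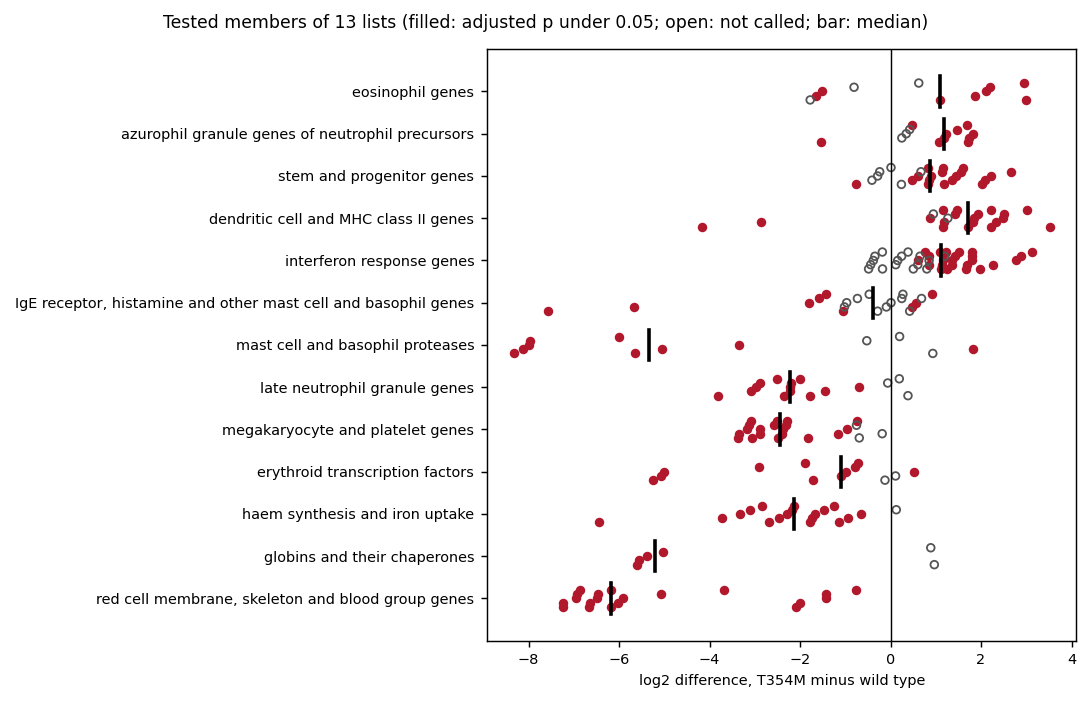
Log2 difference, T354M minus wild type, of each tested member of 13 gene lists; filled points passed the test, open points did not, and bars mark the median of each list. Azurophil genes (median 1.18) and late neutrophil granule genes (median -2.21) lie on opposite sides of 0, and mast cell proteases (-5.35) and red cell membrane genes (-6.18) have the lowest medians.

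Red cell genes made the deepest deficit of the lists examined. In bulk RNA, fewer cells of a lineage and less RNA per cell cannot be told apart. All 20 tested genes of the red cell membrane, its skeleton and blood groups were lower than in wild-type cells, with a median log2 difference of -6.18. Slc4a1 (chr11:102348824-102366203), the band 3 anion exchanger, had 0.629, 2.43, 2.42 and 1.51 CPM in T354M and 186, 258, 262 and 350.1 CPM in wild-type libraries, without overlap (log2 difference -7.25 ± 0.52, adjusted p = 4.28e-09). Rhag, which codes an ammonium channel of the Rh complex, had 0.978, 1.2, 1.98 and 1.22 CPM in T354M and 114, 132, 169 and 137 CPM in wild-type libraries (-6.68 ± 0.36, adjusted p = 2.22e-10). Epb42 (protein 4.2; -7.24), Dmtn (dematin; -6.95) and Sptb (beta spectrin; -6.49) were lower by a similar amount. Differences were smaller for Xk (Kell complex; -1.43), Gypc (glycophorin C; -1.42) and Epb41 (protein 4.1; -0.77), whose use extends beyond red cells.

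Against the enhancer-null cells that had received an empty vector, 11 of the 20 genes were lower in T354M cells and 1, Xk, higher (1.21, adjusted p = 6.40e-05). With limma on log2(TPM + 1) 4 were lower. Slc4a1 averaged 1.75 ± 0.86 CPM in T354M and 8.42 ± 3.19 CPM in empty-vector enhancer-null cells (SD, n = 4 each; log2 difference -2.28, adjusted p = 0.00235). Rhag averaged 1.35 ± 0.439 and 3.89 ± 0.761 CPM (-1.53, adjusted p = 0.00449). Trim10, a gene of terminal red cell maturation, averaged 0.241 ± 0.101 and 1.1 ± 0.32 CPM (-2.18, adjusted p = 4.27e-04). Against GATA2 cells 13 of the 20 were lower and 0 higher. Kel, the Kell blood group gene, averaged 1.54 ± 0.407 CPM in T354M and 25.8 ± 13.1 CPM in GATA2 cells (-4.06, adjusted p = 5.74e-05).

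**Figure D4:**
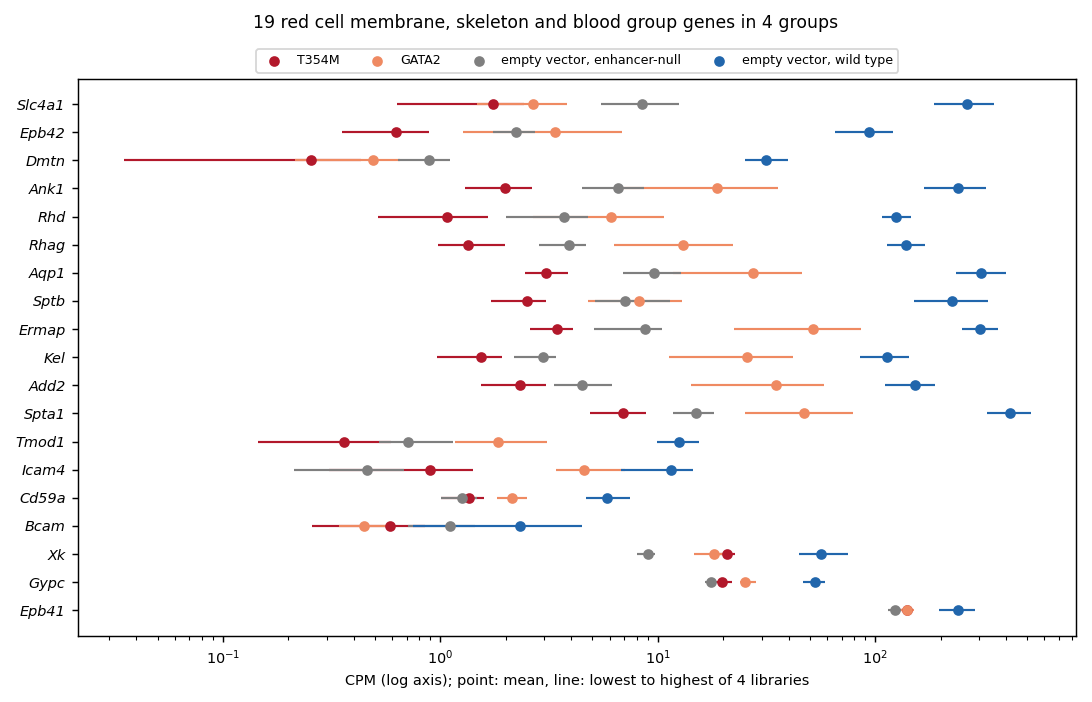
Mean level (CPM, log axis) of 19 red cell genes in T354M, wild-type GATA2 and empty-vector enhancer-null cells and in wild-type cells; bars span the lowest and highest of 4 libraries. The T354M mean is the lowest of the 4 groups for genes such as Slc4a1, Epb42 and Rhag, and its mean lies above that of the empty-vector cells for Xk.

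Haem and globin genes shared the deficit. Of 19 tested genes of haem synthesis and iron uptake, 18 were lower than in wild-type cells and 0 higher, and of 6 globin genes 4 were lower and 0 higher. Alas2, the first enzyme of haem synthesis in red cells, had 0.489, 1.04, 0.757 and 1.32 CPM in T354M and 39.3, 95, 78.8 and 106 CPM in wild-type libraries, without overlap (log2 difference -6.45 ± 0.66, adjusted p = 3.40e-07). The later enzymes Uros (-3.10) and Fech (-2.85) and the transferrin receptor Tfrc (-1.74) were lower by less. Adult beta globin, Hbb-bt, averaged 20 ± 6.36 CPM in T354M and 651 ± 155 CPM in wild-type cells (SD, n = 4 each; -5.02, adjusted p = 9.08e-07). Hbb-bs (-5.60) and Hba-a2 (-5.38) followed, and the near-identical globin copies share reads. The embryonic globins Hbb-y (4.01 ± 3.6 and 2.05 ± 0.807 CPM) and Hba-x (1.08 ± 1.17 and 0.578 ± 0.283 CPM, T354M and wild type) did not pass the test.

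A few red cell genes were above the level of empty-vector enhancer-null cells and below the normal level, while others were below both. Of the 19 haem and iron genes, 3 were higher and 5 lower in T354M than in empty-vector cells. Of 15 genes of the erythropoietin response and other red cell markers 1 was higher and 5 lower, and of 6 globin genes 0 and 3. The 3 lower counts were 1, 2 and 0 without empty-vector replicate 4. Tfr2, an iron sensor that binds the erythropoietin receptor, had 21.8, 11.7, 17.1 and 31.1 CPM in T354M libraries, a mean of 5.06 ± 1.41 CPM in empty-vector enhancer-null cells and 54.6, 33.4, 50.3 and 56.2 CPM in wild-type libraries. It was above empty-vector cells by 2.01 (adjusted p = 1.42e-04) and below wild type (-1.25, adjusted p = 0.00168). Abcb10, a mitochondrial transporter of red cell precursors, was above empty-vector cells by 1.19 (adjusted p = 8.34e-05) and below wild type (-1.67, adjusted p = 2.93e-07). Car1, a carbonic anhydrase, was above empty-vector cells by 2.67 (adjusted p = 0.00285; limma on log2(TPM + 1) 0.78, adjusted p = 0.104) and below wild type (-2.95, adjusted p = 1.39e-05). The erythropoietin receptor Epor averaged 1.0 ± 0.255 CPM in T354M, 1.51 ± 0.534 CPM in empty-vector enhancer-null and 33.6 ± 10.6 CPM in wild-type cells (-5.05 against wild type). Of 15 genes of the erythropoietin response and late red cell markers, 12 were lower than in wild-type cells and 0 higher, with Prdx2 (an antioxidant enzyme; -1.95), Trim10 (-6.80) and Tspan33 (-5.15) at the lowest adjusted p.

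Red cell transcription factors were below normal in 10 of 13 tested cases and above it in 1, Cited2 (0.51). Sox6, which silences embryonic globin, had 2.27, 1.78, 2.6 and 2.51 CPM in T354M and 48.7, 74.5, 77.2 and 93.9 CPM in wild-type libraries, without overlap (log2 difference -5.00 ± 0.22, adjusted p = 2.93e-11). Klf1, the activator of the adult red cell program, averaged 1.85 ± 0.576 CPM in T354M, 18 ± 10.6 CPM in GATA2, 2.21 ± 0.612 CPM in empty-vector enhancer-null and 71.1 ± 15.5 CPM in wild-type cells (T354M against wild type -5.25, adjusted p = 3.96e-08; against GATA2 -3.27, adjusted p = 5.52e-05). Hemgn (-5.07), Gfi1b (-2.91) and Klf3 (-1.89) were lower. Nfe2 averaged 126 ± 21.4 CPM in T354M and 116 ± 8.4 CPM in wild-type cells and did not pass.

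Among GATA2 and its partner factors, 2 of 10 tested were higher and 5 lower. Gata1, which replaces GATA2 as red cells mature, had 13.2, 5.71, 8.98 and 21 CPM in T354M and 88.5, 79.8, 102 and 92.7 CPM in wild-type libraries, without overlap (log2 difference -2.89 ± 0.36, adjusted p = 3.78e-06). It was also below GATA2 cells (-1.99, adjusted p = 8.35e-04). Tal1, a partner in the complex with LMO2 and LDB1, was lower than in wild type (-2.31, adjusted p = 6.33e-09), and so were Lmo2 (-0.76) and Ldb1 (-1.11). The ETS factors Erg (1.25, adjusted p = 1.99e-06) and Fli1 (0.79, adjusted p = 1.63e-05) were higher. Erg averaged 35.5 ± 4.97 CPM in T354M, 18.5 ± 2.33 CPM in GATA2, 14.6 ± 1.6 CPM in empty-vector enhancer-null and 15 ± 3.27 CPM in wild-type cells.

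Mgll (chr6:88724412-88828360), a monoacylglycerol lipase gene near Gata2 on chromosome 6, had 2.69, 4.48, 3.06 and 3.8 CPM in T354M and 18, 18.6, 23.6 and 25.1 CPM in wild-type libraries, without overlap (log2 difference -2.60 ± 0.18, adjusted p = 2.97e-09). GATA2 cells averaged 2.14 ± 0.467 CPM and empty-vector enhancer-null cells 2.41 ± 0.171 CPM. T354M was above empty-vector cells by 0.54 (adjusted p = 0.0479), a call lost without T354M replicate 2, 3 or 4 or any 1 of the empty-vector libraries (0.39 to 0.59). It was above GATA2 cells by 0.71 (adjusted p = 0.0152), a call lost without T354M replicate 2 or 4 or GATA2 replicate 1 (0.56 to 0.65). Of 11 tested neighbours of Gata2, 3 were higher and 3 lower, with Rpn1 (an oligosaccharyltransferase subunit; 0.63) and Copg1 (a coat protein of vesicles; 0.36) among the higher.

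Platelet precursor genes stayed below normal. Of 22 tested megakaryocyte genes 19 were lower and 0 higher, with a median log2 difference of -2.45. Clec1b, a platelet receptor, had 1.78, 2.78, 3.97 and 2.09 CPM in T354M and 15.6, 33.6, 29.5 and 29.5 CPM in wild-type libraries, without overlap (log2 difference -3.35 ± 0.33, adjusted p = 2.36e-07). Mmrn1 (multimerin; -2.41), Gp1ba (the von Willebrand factor receptor; -3.12), Pf4 (platelet factor; -2.37), Ppbp (a platelet chemokine; -3.08) and Vwf (-3.17) were lower. Itga2b, the integrin of early megakaryocytes, averaged 67.7 ± 27.1 CPM and 109.5 ± 26.2 CPM in T354M and wild-type cells and did not pass (adjusted p = 0.0745). Against empty-vector enhancer-null cells 11 of the 22 were lower, but 2 without T354M replicate 1, 3 without T354M replicate 4 and 2 without empty-vector replicate 4.

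Stem and progenitor genes were above the normal level in 17 of 24 tested cases and below it in 1, Lmo2. The median log2 difference from wild type was 0.87 in T354M, 0.73 in GATA2 and 1.02 in empty-vector enhancer-null cells. Against empty-vector cells 3 of the 24 were higher and 6 lower, and 2 higher and 2 lower without T354M replicate 4. Against GATA2 cells 2 were higher and 3 lower. Cd34, a surface marker of progenitors, had 260.2, 277, 298 and 194 CPM in T354M and 54.3, 83.2, 59.9 and 44.7 CPM in wild-type libraries, without overlap (log2 difference 2.09 ± 0.25, adjusted p = 2.99e-06). Myb, a factor that keeps progenitors dividing, averaged 567 ± 91.2 CPM in T354M, 351 ± 35.3 CPM in GATA2, 171 ± 11.1 CPM in empty-vector enhancer-null and 252 ± 19.7 CPM in wild-type cells. It was above wild type by 1.17 (adjusted p = 2.42e-07) and above GATA2 by 0.69 (adjusted p = 5.07e-04). Hmga2 (1.46) and Igf2bp3 (0.82), fetal growth regulators, Ly6a (Sca-1; 2.67), Hoxa9 (1.36) and Meis1 (0.61) were higher. Kit, the SCF receptor, averaged 99.7 ± 4.4 CPM and 122 ± 17.8 CPM in T354M and wild-type cells and did not pass (adjusted p = 0.0855).

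Of 10 tested early lymphoid genes 6 were higher and 0 lower. Tcf7, a T cell factor, had 6.15, 2.74, 3.46 and 6.02 CPM in T354M and 0.696, 0.589, 0.235 and 0.294 CPM in wild-type libraries (3.34 ± 0.33, adjusted p = 2.65e-07), and was above GATA2 cells by 1.29 (adjusted p = 0.00594; without replicate 4 of every group 1.04, adjusted p = 0.0827). Cd7 (3.02) and the immunoglobulin heavy chain Ighm (1.83) were higher than in wild-type cells and below empty-vector enhancer-null cells (log2 difference -1.90 with adjusted p = 0.00344, and -1.27 with adjusted p = 0.00496).

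Antigen presentation genes lay between the levels of empty-vector enhancer-null and normal cells. Of 21 tested genes of dendritic cells and MHC class II, 17 were higher than in wild-type cells and 2 lower, and against empty-vector enhancer-null cells 18 were lower and 0 higher. Cd74, the MHC class II invariant chain, had 36, 48.7, 74.7 and 25.9 CPM in T354M libraries, a mean of 138 ± 34 CPM in empty-vector enhancer-null cells and 14.2, 16.8, 12.6 and 13 CPM in wild-type libraries. T354M lay between them without overlap, 1.71 above wild type (adjusted p = 5.38e-04) and -1.57 against empty vector (adjusted p = 0.00299) on the log2 scale. Flt3, a receptor of early dendritic and lymphoid precursors, averaged 27.6 ± 12 CPM in T354M, 91.8 ± 9.38 CPM in empty-vector enhancer-null and 5.92 ± 2.03 CPM in wild-type cells, with 2.22 above wild type (adjusted p = 4.12e-04) and -1.74 against empty vector (adjusted p = 0.0062). H2-Aa (an MHC class II chain; 2.22), Itgax (CD11c; 1.94) and Siglech (a plasmacytoid dendritic cell lectin; 3.51) were higher than in wild type. Zbtb46, a factor of classical dendritic cells that red cell precursors also express, was lower (-4.17, adjusted p = 1.08e-08), as was the receptor Clec9a (-2.87).

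Interferon response genes followed the same order. Of 40 tested 24 were higher than in wild-type cells and 0 lower, with a median log2 difference of 1.10. Ifit3, an antiviral effector, had 33.7, 39.3, 29.7 and 9.7 CPM in T354M, a mean of 84.6 ± 25.6 CPM in empty-vector enhancer-null cells and 1.52, 8.93, 1.88 and 3.01 CPM in wild-type libraries. T354M replicate 4 was the lowest of its group and close to wild-type replicate 2, without overlap (log2 difference 2.89 ± 0.63, adjusted p = 0.00121). Ifi44 (3.13) and Bst2 (tetherin; 1.16) were higher. Against empty-vector enhancer-null cells 35 of 40 were lower and 0 higher, with 15 lower without T354M replicate 4, 22 without T354M replicate 1 and 21 without empty-vector replicate 1. With the replicate block or with only the 8 libraries compared, 40 were lower. Against GATA2 cells 0 of 40 passed in either direction in the edgeR test (2 at an unadjusted p under 0.05, 1 in the DESeq2 Wald test, 1 with the replicate block and 0 with limma on log2(TPM + 1)).

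Among 23 pattern recognition receptors and adaptors 15 were higher than in wild-type cells and 0 lower. Tmem173 (STING; 1.52, adjusted p = 5.75e-08), the inflammasome receptor Naip5 (0.90, adjusted p = 2.70e-07) and the adaptor Tyrobp (0.79, adjusted p = 1.29e-05) had the lowest p-values. Without T354M replicate 2 the count was 9. The list median from wild type was 0.90 in T354M, 0.86 in GATA2 and 1.85 in empty-vector enhancer-null cells. Compared with empty-vector cells, 7 were lower and 1 higher, with 2 lower without T354M replicate 4. Of 26 monocyte and macrophage genes 10 were higher and 1, the mannose receptor Mrc1 (-1.18), lower. The Fc receptor Fcgr3 (1.10), the fractalkine receptor Cx3cr1 (1.51) and Adgre1 (F4/80; 1.04) were higher. Without T354M replicate 2, which had the highest levels of many of these genes, 5 were higher, and without replicate 4 of every group 17. The median of the monocyte and macrophage list from wild type was 0.73 in T354M, 0.59 in GATA2 and 1.60 in empty-vector enhancer-null cells. Compared with empty-vector cells, 16 of the 26 were lower and 2 higher, with 3 lower without T354M replicate 4.

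Growth factor receptors gave 6 higher and 2 lower of 15 tested. The common cytokine receptor chain Il2rg was 0.83 above wild type (adjusted p = 3.92e-07). Of 34 replication and cell cycle genes 14 were lower and 3, the G1 genes Ccnd2 (0.82), Cdk4 (0.23) and Cdk6 (0.32), higher (median -0.23), with cyclin E, Ccne1 (-1.42), the inhibitor Cdkn2c (-1.33) and Mki67 (-0.80) among the lower, and with limma on log2(TPM + 1) 8 were lower. The call of Cdk4 was lost without T354M replicate 3 or wild-type replicate 2 or 4 (0.20 to 0.21, adjusted p 0.0515 to 0.0699). Scd1, a fatty acid desaturase, had 1.99, 0.502, 0.613 and 0.677 CPM in T354M and 33.6, 34.8, 72.2 and 82.7 CPM in wild-type libraries (-5.87 ± 0.59, adjusted p = 2.92e-07). It belongs to 22 genes of sterol and fatty acid synthesis, of which 4 were higher and 6 lower. Of 21 glycolysis and hypoxia genes 5 were higher and 8 lower, and the glucose transporter Slc2a3 (-2.21) and hexokinase Hk1 (-1.50) were among the lower. Counts of both metabolic lists moved by more than 1.5 times when T354M replicate 2 was left out, to 3 and 4 lower, and that of sterol genes was 3 lower also without wild-type replicate 1 or 3.

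Cftr and Dio2 averaged more than in GATA2, empty-vector and wild-type cells. Cftr, a chloride channel, had 8.49, 7.41, 4.72 and 5.51 CPM in T354M and 0.957, 1.18, 0.939 and 1.1 CPM in wild-type libraries, without overlap (2.64 ± 0.30, adjusted p = 1.49e-06), and averaged 0.661 ± 0.201 CPM in GATA2 and 0.238 ± 0.0981 CPM in empty-vector enhancer-null cells. Dio2, a deiodinase that activates thyroid hormone, had 25.3, 17.9, 23.5 and 33.9 CPM in T354M and 5.39, 6.43, 4.32 and 3.89 CPM in wild-type libraries (2.33 ± 0.21, adjusted p = 7.29e-08), and averaged 5.4 ± 1.31 CPM in GATA2 and 2.34 ± 0.305 CPM in empty-vector enhancer-null cells. Both were above GATA2 cells, by 3.30 (adjusted p = 2.94e-06) and 2.22 (adjusted p = 2.39e-06).

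Set side by side against the same wild-type libraries, T354M and GATA2 cells had close list medians for some lists and distant ones for others. Because each contrast uses the same 4 wild-type libraries, these medians are given as values only. For interferon genes the median log2 difference from wild type was 1.10 in T354M, 1.16 in GATA2 and 2.45 in empty-vector enhancer-null cells. For eosinophil genes it was 1.09, 1.34 and -5.04 in the same order. For mast cell proteases it was -5.35, 0.22 and -5.14, although 4 of the 12 were higher in T354M than in empty-vector cells when set against them directly. Of these proteases 6 passed the filter on low counts when T354M and empty-vector libraries were fitted alone. Both low medians thus rest partly on members with few counts in both groups. For red cell membrane genes the median was -6.18, -2.82 and -4.98, and for azurophil genes 1.18, 0.07 and -0.20, where the T354M value was the lowest and the highest of these groups.

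**Figure D5:**
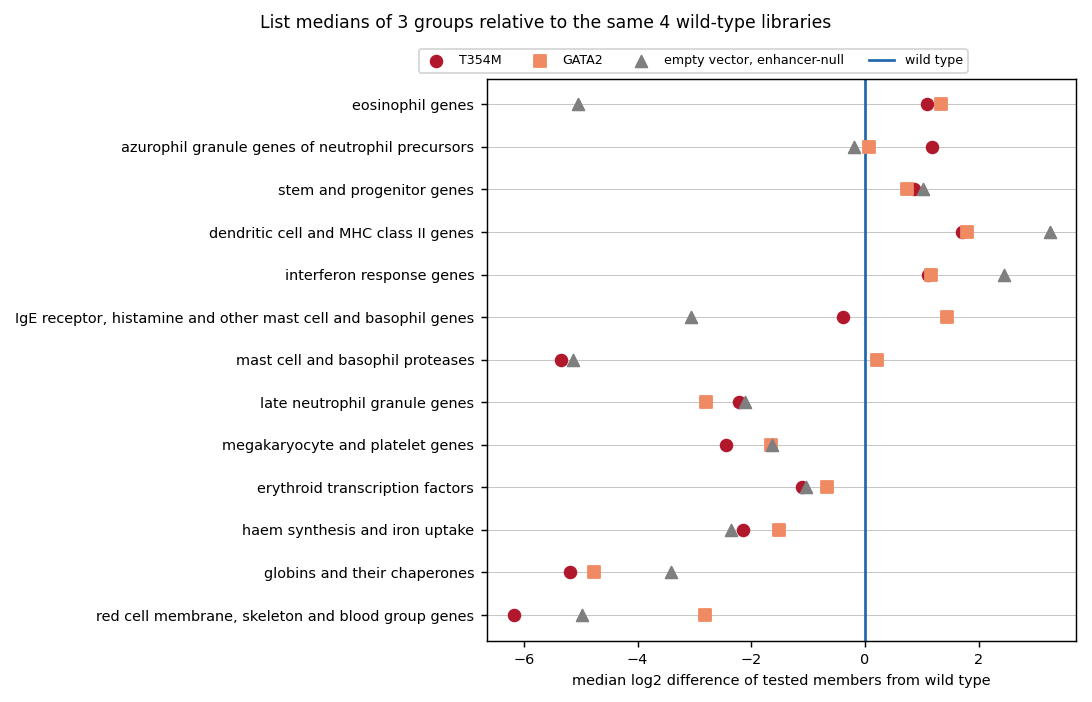
Median log2 difference from the same 4 wild-type libraries for 13 gene lists in T354M, GATA2 and empty-vector enhancer-null cells; the line at 0 is the wild-type level. For interferon genes the T354M and GATA2 medians are 1.10 and 1.16. For mast cell proteases the T354M and empty-vector medians are -5.35 and -5.14, while 4 of 12 members were higher in T354M than in empty-vector cells directly. Of these members 6 passed the filter on low counts when these groups were fitted alone.

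Genes of other liver cells were present in all 8 libraries. The summed level of 18 hepatocyte genes was 2093, 1206, 644 and 399 CPM in T354M replicates 1 to 4 and 4127, 2352, 945 and 1778 CPM in wild-type replicates 1 to 4, and 2 of the 18, Rbp4 and Hnf4a, passed as lower, with 0 higher. Both calls were lost when single libraries of either group were left out (Rbp4 -1.92 to -1.25, Hnf4a -1.31 to -0.72), and without T354M replicate 1 there were 10 lower. The summed level of 20 endothelial and stromal genes was 570 to 728 CPM in T354M and 383 to 787 CPM in wild-type libraries, with 2 of the 20 higher, Pecam1 (1.36) and Pdgfrb (2.38), and 4 lower. The part of these cells in any of the differences above was not tested. T354M replicates 4 and 1 had the most Gata2 reads and the highest levels of Epx, Cpa3 and Gata1, and T354M replicate 4 the lowest levels of Irf8, Ifit3 and hepatocyte genes. The part of this spread in the group means was not tested.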

How the data were processed

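RNA-seq libraries were made from total RNA with a NuGEN Ovation kit, per the labels' protocols. The submitters' processing notes name STAR 2.5.2b, RSEM 1.3.0 and build mm10; the annotation is not given in the sources used here. The deposited files hold RSEM expected counts per gene, not normalized, the TPM that the authors computed from them (scaled by effective length and library), and deposited FPKM values that were not analysed. Replicates were not pooled.

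Expected counts were rounded and the 20 libraries were fitted together (5 group means) with edgeR 4.0.16's quasi-likelihood test in R 4.3.3, TMM scaling and edgeR's filter on low counts. This left 15835 of 53379 gene IDs, and a gene was called at a Benjamini-Hochberg adjusted p under 0.05 over all of them. CPM are scaled by TMM, apart from the summed levels of hepatocyte and of endothelial and stromal genes, which are scaled by library total alone. Names and positions came from GENCODE M21 (53274 IDs matched; the other 105 held at most 0.0148% of a library's counts). Library totals were 22330475 to 33245876. Intervals and floors cover counting error only. No replicates were duplicates (chi-square per degree of freedom 28.68 to 71.78 in T354M and 28.78 to 113.5 in wild type). The scripts were tested on simulated data.

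Genes named by rule were Gata2, Xist, Ddx3y, the 10 highest and 10 lowest called genes against wild type (5 and 5 in the other comparisons) with at least 5 CPM in 1 group and no overlap between groups, and the 3 called members of each list with the lowest adjusted p. Predicted, ribosomal, mitochondrial, pseudogene and small RNA symbols were left out of the highest and lowest. Some genes are not reported here. The rule named more genes than are described, and the other genes described were chosen after their values were seen. Members and lists were chosen with earlier results of these data known. Of the list symbols, 5 were not matched.

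Same-numbered T354M and GATA2 libraries deviated together from their group means (r = 0.159 to 0.551, all 4 over 0.1). Of the 4 T354M libraries, 3 correlated best with the GATA2 library of their own number. The title numbers were taken as a possible pairing, which no label states. Unless stated, values against GATA2 cells come from the fit without the block. The blocked value is printed where it changed the call of a named gene, and for some list counts. Alternatives were DESeq2 1.42.0 (Wald test and size factors), limma 3.58.1 on log2(TPM + 1) and log2(TPM + 0.1), no filter, a replicate block, only the 8 libraries compared, nuclear protein-coding genes alone, and leaving out libraries. The letters GATAA were searched on both strands of RefSeq promoters (GRCm38.p6).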

Additional observations from a re-analysis of the deposited data

Results flagged for a closer look

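Each value below is a library whose level stood far from the other 3 of its group, judged by its gap to the nearest library over the group's range (Dixon's critical value for 4 samples). Of 363 groups of 4 looked at, 23 did so, where chance gives about 1 in 20.

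In T354M cells, replicate 4 was the highest library for Hk1 (60.7 CPM) and Nkg7 (50.0009 CPM) and the lowest for the interferon gene Ifit3b (2.96 CPM). It was also the highest for the mast cell proteases Mcpt4 (0.0322 CPM), Tpsb2 (0.161 CPM) and Tpsg1 (0.129 CPM), levels of 1 to a few counts. T354M replicate 2 was the lowest for Gfi1 (50.9 CPM) and, with 0 CPM against 1 count in each of the others, for Fcer1a. T354M replicate 1 was the highest for Hmga2 (58.1 CPM) and Scd1 (1.99 CPM) and the lowest for Ccne1 (21.8 CPM).

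Among wild-type cells, replicate 2 was the highest library for Fcnb (83.2 CPM), Fcer1g (64.9 CPM), Ly6a (9.47 CPM), Flt3 (8.93 CPM), Itgax (2.80 CPM) and Ifi44 (0.393 CPM). Replicate 3 was the highest for Car2, a carbonic anhydrase (1168 CPM), Prdx2 (400.1 CPM) and Fcer1a (3.00 CPM). Replicate 4 was the highest for Cdk6 (366 CPM), Vwf (127.9 CPM) and the mitochondrial ribosomal RNA mt-Rnr1 (21267 CPM).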

How the results depend on the processing

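Between T354M and wild-type cells, 5860 genes were called in the edgeR test, and 2405 with a fold of at least 2 required. Leaving out single libraries gave 5193 to 5880. The other settings gave 4265 (only the 8 libraries compared) to 6764 (replicate block). Called genes split 2941 higher to 2919 lower (50.2% higher), but 3482 to 2020 (63.3%) with limma on log2(TPM + 1) and 3561 to 1982 (64.2%) on log2(TPM + 0.1). Some settings on counts gave more lower than higher genes. These were 2778 to 3019 (47.9%) with DESeq2 size factors, 2910 to 3146 (48.1%) with the DESeq2 Wald test and 1970 to 2295 (46.2%) with only the 8 libraries compared. The median log2 difference of all genes was 0.02 with edgeR, 0.10 and 0.14 with the 2 TPM settings and -0.19 with no filter. The cause of these shifts was not tested. Against empty-vector enhancer-null cells the count was 2751 (1467 higher to 1284 lower, but 1296 to 1439 with DESeq2 size factors). It was 1831 and 1760 with limma on log2(TPM + 1) and log2(TPM + 0.1), 1681 without replicate 4 of every group, 1401 without T354M replicate 4, 1758 without T354M replicate 1 and 1737 without empty-vector replicate 4, within 1401 to 3074 over single libraries left out. Against GATA2 cells the count was 1583, with 1013 without replicate 4 of every group, 979 without GATA2 replicate 4 and up to 1679 over single libraries left out. Gata2 passed against wild type with limma on log2(TPM + 1) and log2(TPM + 0.1), at 1.04 and 1.08. Against GATA2 cells it passed with the replicate block, at -0.62. Leaving out single libraries gave 0.03 to 0.41 against wild type, 2.93 to 3.33 against empty vector and -0.87 to -0.29 against GATA2. The letters GATA in place of GATAA were found in 53.62% of promoters.

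Same-numbered T354M and wild-type libraries had r = 0.0148 to 0.183, with 1 of 4 best with its own number. For T354M and empty-vector libraries r was 0.0619 to 0.313 (3 of 4 over 0.1), and 4 of 4 were best with their own number. This hints at a pairing there too, which no label states. Values against empty-vector cells come from the fit without the block. The replicate block gave 6764, 3804 and 2090 calls against wild type, empty vector and GATA2, called 18 of 18 hepatocyte genes lower than in wild type in place of 2, and changed no call against GATA2 among other genes named. Against GATA2, it called 6 in place of 2 partner factors, 9 in place of 5 sterol genes and 1 in place of 0 interferon genes lower. It also called 15 in place of 13 other mast cell and basophil genes and 14 in place of 13 red cell membrane genes lower. Azurophil genes called higher were 10 in place of 9. Of 156 called genes named or in the rule, 143 kept call and direction against wild type under every alternative run, as did 26 of 41 against empty vector and 26 of 30 against GATA2. No named gene changed direction where it was called, but the split of all called genes into higher and lower did under some settings. Of 2958 list counts under alternatives, 367 moved by over 1.5 times. With limma on log2(TPM + 1), 4 in place of 2 partner factors were higher, and 2 in place of 6 sterol genes and 4 in place of 8 glycolysis genes were lower. Genes near 0 counts are limited by depth.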
